A study of Mus musculus with 6 samples.

Results

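The 39 genes described here encode the cyclins, cyclin-dependent kinases (CDKs), CDK inhibitors, replication factors and mitotic proteins of the cell division cycle. They were chosen by symbol from a list, and all 39 were found among the 24940 gene rows of an exon count table. All 39 passed the filter on low counts, which left 12687 genes for testing. The table came from RNA sequencing of polyadenylated RNA from primary mouse hepatic stellate cells, which lie along the liver sinusoids and store vitamin A. The cells were isolated from female C57BL/6JBomTac mice, kept for 2 days, and then given either obeticholic acid (OCA) at 10 µM or an equal volume of its vehicle DMSO for 6 hours. OCA, derived from a bile acid, is an agonist of FXR, the nuclear receptor that senses bile acids. There were 3 OCA and 3 DMSO libraries, lettered A to C in each group, with between 12260882 and 16336240 counts. The labels do not say whether A, B and C are separate cultures or mice, or whether mice were pooled, and all p-values are relative to the spread among these libraries, possibly a technical one.

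A cell that enters the cycle first raises D-type cyclins, which activate Cdk4 and Cdk6 and so release E2F transcription factors from the retinoblastoma protein. E2F then drives the genes of the G1/S transition, among them cyclin E, the MCM helicase subunits and the enzymes that make deoxynucleotides. A later wave of G2/M genes, including cyclin B, Cdk1, the Aurora and Polo kinases and the spindle checkpoint, is switched on through the B-Myb and FoxM1 factors acting with the MuvB complex. Stellate cells are quiescent in healthy liver, and entry into the cycle is part of their activation into myofibroblasts. For the description below, the members were split into 22 G1/S genes (D- and E-type cyclins with their kinases, Rb1 and E2f1, licensing factors and S-phase synthesis genes), 14 G2/M genes and 3 CDK inhibitor genes.

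Promoters from both waves are shown first, since E2F and MuvB act through short elements near the start of their target genes. Promoter windows run from 250 bases before to 50 bases after a gene's start and come from RefSeq on GRCm38.p6, the mm10 assembly. They were matched by symbol for 32 of the 39 members, and Ccnd1, Ccnd2, Ccne2, Rb1, Mcm4, Ccna2 and Aurkb had no entry. For 29 of the 32 the start was that of the counted transcript. It lay 466 bases away for E2f1, 262 for Cdc6 and 21 for Kif11. Capitals in the lower-case sequences mark any match, on either strand, to the E2F motif (TTTCCCGC, TTTCGCGC, TTTGCCGC or TTTGGCGC), the cell cycle genes homology region or CHR (TTTGAA), or the CCAAT box (CCAAT).
The promoter of Cdk6, also lower under OCA, held none of these motifs and is not shown. The Cdk2 promoter, at chr10:128705002-128705301 on the minus strand, is shown because Cdk2 was lower under OCA and holds an E2F match.
Cdk2: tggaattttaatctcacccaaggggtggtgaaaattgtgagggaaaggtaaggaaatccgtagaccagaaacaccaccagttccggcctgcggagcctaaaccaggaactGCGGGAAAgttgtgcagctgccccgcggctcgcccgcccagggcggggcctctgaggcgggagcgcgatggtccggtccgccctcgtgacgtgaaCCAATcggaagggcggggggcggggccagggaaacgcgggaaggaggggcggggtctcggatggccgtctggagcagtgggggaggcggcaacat
Mcm5 at chr8:75109259-75109558 (plus strand) and Mcm6 at chr1:128359656-128359955 (minus strand) are licensing genes with 2 and 3 E2F matches, of which 2 overlap in a single stretch in each promoter.
Mcm5: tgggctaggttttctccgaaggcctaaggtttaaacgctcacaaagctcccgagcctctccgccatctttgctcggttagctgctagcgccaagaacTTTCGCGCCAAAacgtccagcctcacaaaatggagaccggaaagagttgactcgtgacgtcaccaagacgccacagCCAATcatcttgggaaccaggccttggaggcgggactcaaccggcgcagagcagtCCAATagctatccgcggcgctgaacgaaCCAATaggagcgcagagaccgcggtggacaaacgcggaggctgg
Mcm6: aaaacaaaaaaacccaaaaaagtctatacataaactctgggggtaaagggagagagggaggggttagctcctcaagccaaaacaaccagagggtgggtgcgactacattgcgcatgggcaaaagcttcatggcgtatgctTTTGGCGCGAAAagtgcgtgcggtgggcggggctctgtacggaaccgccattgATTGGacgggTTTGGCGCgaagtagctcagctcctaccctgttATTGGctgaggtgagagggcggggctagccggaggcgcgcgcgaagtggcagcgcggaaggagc
Cdk1 at chr10:69352863-69353162, Cdc20 at chr4:118437294-118437593 and Top2a at chr11:99024140-99024439 (all minus strand) are G2/M genes with CHR and CCAAT matches, and Cdk1 also holds an E2F match.
Cdk1: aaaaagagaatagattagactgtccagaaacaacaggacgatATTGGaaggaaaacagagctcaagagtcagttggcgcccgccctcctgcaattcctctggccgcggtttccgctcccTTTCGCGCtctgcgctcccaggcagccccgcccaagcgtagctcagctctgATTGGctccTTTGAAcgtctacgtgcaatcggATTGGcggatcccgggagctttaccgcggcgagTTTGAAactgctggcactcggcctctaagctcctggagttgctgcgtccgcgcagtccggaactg
Cdc20: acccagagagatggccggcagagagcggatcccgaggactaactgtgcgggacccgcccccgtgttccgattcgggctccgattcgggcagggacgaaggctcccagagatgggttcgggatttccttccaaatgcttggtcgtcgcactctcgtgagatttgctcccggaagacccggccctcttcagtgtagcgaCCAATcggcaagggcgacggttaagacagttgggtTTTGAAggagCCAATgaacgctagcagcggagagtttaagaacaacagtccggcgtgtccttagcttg
Top2a: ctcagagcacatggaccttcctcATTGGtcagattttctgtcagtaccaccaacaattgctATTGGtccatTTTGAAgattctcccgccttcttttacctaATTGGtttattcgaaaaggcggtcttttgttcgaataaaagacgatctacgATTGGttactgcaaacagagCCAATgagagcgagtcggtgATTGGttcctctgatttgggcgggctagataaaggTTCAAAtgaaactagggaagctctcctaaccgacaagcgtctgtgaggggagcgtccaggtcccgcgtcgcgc

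Among the 11 matched promoters of licensing and S-phase synthesis genes, 6 held an E2F match (54.5%), against 1 of 12 G2/M promoters (8.33%) and 2.26% of all 32851 RefSeq promoters of the same length. The 6 were Cdc6, Cdt1, Mcm3, Mcm5, Mcm6 and Mcm7, all licensing genes, and the synthesis genes Pcna, Rrm1, Rrm2 and Tyms held no E2F match. Over all 17 matched G1/S promoters, 7 held an E2F match (41.2%), these 6 and Cdk2. The CHR letters stood in 9 of 12 G2/M promoters (75%), in 1 of the 11 licensing and synthesis promoters, that of Mcm2, and in 17.9% of all promoters. CCAAT boxes were found in 11 of 12 G2/M promoters and 8 of the 11, where 37.4% of all promoters held one. All 9 G2/M promoters with a CHR match also had a CCAAT box, a pair present in 6.95% of all promoters. Matches of these motifs overlapped one another in 3 member promoters, those of Mcm5, Mcm6 and Mcm7. The FXR element known as IR1, an inverted repeat of the half-site AGGTCA spaced by 1 base, was in 0 of the 32 member promoters and in 0.00913% of all promoters. Only exact repeats were searched, so imperfect ones were not counted, and with so low a share the 0 cannot set the members apart. The half-site alone was in 4 of the 32 member promoters (12.5%) and in 16.3% of all promoters. A match is a description of the letters only, and a window without a match says nothing about binding elsewhere.

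**Figure D1:**
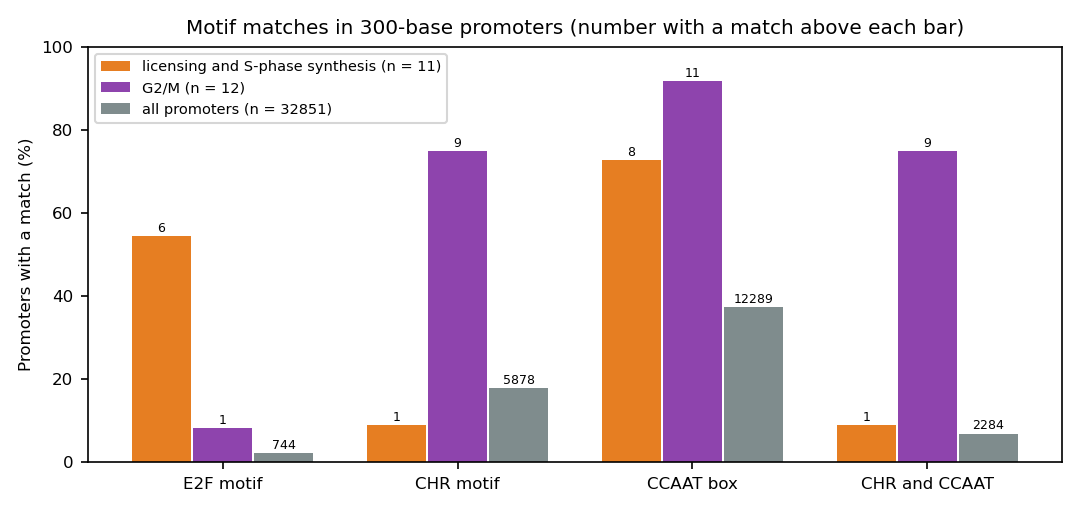
Share of promoter windows (y axis, percent) that hold a match to each motif (x axis), for licensing and S-phase synthesis genes (orange, 11 promoters), G2/M genes (purple, 12) and all RefSeq promoters (grey, 32851), with the number of promoters that match above each bar. E2F matches stand in 54.5% of the licensing and synthesis promoters, all of them of licensing genes, and CHR matches in 75% of the G2/M promoters.

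The labelled cell type was checked against markers of the liver's cell types. All 12 stellate markers passed the filter, and their summed level lay between 2289 and 2736 CPM (counts scaled to a common library size with edgeR's TMM factors) in the 6 libraries. The 2 most abundant were Reln (325 ± 143 CPM in OCA, 547 ± 73.6 in DMSO) and Pdgfrb (437 ± 29.3 and 472 ± 33.2, all SD, n = 3). Of the 12, 2 were lower under OCA by the test, Reln and Rgs5, while 7 had a log2 fold change above 0 (median 0.06). The 2 are 16.7% of the list, where 5.20% of all genes tested were called in either direction. Every OCA library lay above every DMSO library for 4 markers and below for 2. This is 50% of the list, against 23.0% of all genes tested. Myofibroblast markers summed to between 2705 and 3485 CPM, led by Col1a1 and Col3a1, with 1 of 8 lower (Col1a2, 12.5%). The part of these shifts in the results below was not tested. All 8 lymphocyte markers were under 1 CPM, 6 of them at 0 in every library. So were 9 of 10 hepatocyte, 8 of 10 macrophage, 4 of 5 cholangiocyte and 4 of 5 mesothelial markers in both group means. Summed macrophage markers ranged from 6.64 to 8.83 CPM in OCA and from 6.19 to 11.4 CPM in DMSO, with Cd68 and Csf1r the most abundant. Hepatocyte markers, led by Alb and Ahsg, summed to between 3.30 and 7.13 CPM in OCA and 3.09 and 4.56 CPM in DMSO. Cholangiocyte markers (Spp1 and Krt19) summed to between 4.35 and 7.48 CPM, mesothelial markers (Wt1 and Upk3b) to between 0.724 and 1.92 CPM, and lymphocyte markers (Cd79a and Cd3e) to at most 0.192 CPM. The endothelial list summed to between 563 and 691 CPM, nearly all of it Eng (583 ± 63.8 CPM in DMSO) with some Egfl7. Of its 10 genes 4 passed the filter. Under 1 CPM in both group means were 6 of the 10, among them Pecam1, Cdh5, Kdr and Stab2. As a sign that the treatment acted, the FXR target Abcb11, the bile salt export pump, had 60, 59.5 and 71 counts in the OCA libraries and 3, 2 and 1.5 in the DMSO libraries (log2 fold change 4.86, adjusted p = 1.36e-06 by edgeR). Nr1h4, which encodes FXR, had 65.8 ± 2.62 CPM in OCA and 84.0 ± 2.39 in DMSO. It was called lower, with every OCA library below every DMSO library (log2 fold change -0.35, interval -0.50 to -0.20, adjusted p = 0.00535 by edgeR).

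In the vehicle cultures the members spanned nearly the whole range of expression. To compare genes, levels are given as CPM per kb of transcript, in DMSO as mean ± SD over n = 3 libraries, with the percentile among the 12687 tested genes. The highest member was Cdkn1a, which encodes the p53-induced CDK inhibitor p21 (228 ± 23.6 CPM per kb, percentile 99.5). Next to it, and within the spread of these libraries, stood the D-type cyclin gene Ccnd2 (217 ± 17.0, percentile 99.4). Cdk4, the kinase partner of D-type cyclins (136 ± 12.9), Ccnd1 (104 ± 5.87), the replication clamp gene Pcna (80.2 ± 3.42) and Ccnd3 (74.2 ± 6.82) followed, and Pcna and Ccnd3 did not differ beyond their spread. All 6 lay above percentile 90.

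The helicase genes Mcm2 to Mcm7, whose products form 1 hexamer, had like levels. They ran from 16.7 ± 1.00 CPM per kb for Mcm5 to 33.3 ± 2.05 for Mcm2, and within a library the highest exceeded the lowest by a ratio of between 1.92 and 2.14. The ribonucleotide reductase subunit genes Rrm1 (21.5 ± 0.799) and Rrm2 (18.6 ± 1.78) lay in the same range, Rrm2 within the spread of Mcm4 (19.7 ± 1.08). Below them came the loading factor genes Cdt1 (8.44 ± 1.06) and Cdc6 (1.54 ± 0.156), the latter at percentile 13, and Tyms, for thymidylate synthase (5.57 ± 0.964), which was counted on a non-coding transcript (NR_033402). Cyclin E genes were low as well, with Ccne1 at 5.26 ± 0.596 and Ccne2 at 4.59 ± 0.486. So was the activator E2f1 (3.38 ± 0.649), next to its inhibitor gene Rb1 at 9.42 ± 0.848.

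G2/M genes filled most of the lower end of the order. Their highest member was Ccna2, the cyclin A gene (5.84 ± 0.576 CPM per kb, percentile 30.1), and their lowest Bub1, a spindle checkpoint kinase gene (0.370 ± 0.106, percentile 2.9). The proliferation marker Mki67 stood at 1.38 ± 0.114 (percentile 12.1), Top2a, a topoisomerase that untangles chromosomes, at 2.99 ± 0.437, and Ccnb1, the main mitotic cyclin gene, at 0.571 ± 0.363. Over the 14 G2/M genes the median was between 1.44 and 1.68 CPM per kb in the 6 libraries, against 18.5 to 20.1 over the 12 licensing and synthesis genes and 13.7 to 14.7 over all genes tested. In wider lists of the same waves the median was 9.24 to 11.3 for 53 other G1/S genes, below that of all genes in every library, and 1.66 to 2.11 for 50 other G2/M genes. In bulk RNA, fewer cells in a phase and less RNA per cell cannot be told apart. These levels are a description and were not tested.

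**Figure D2:**
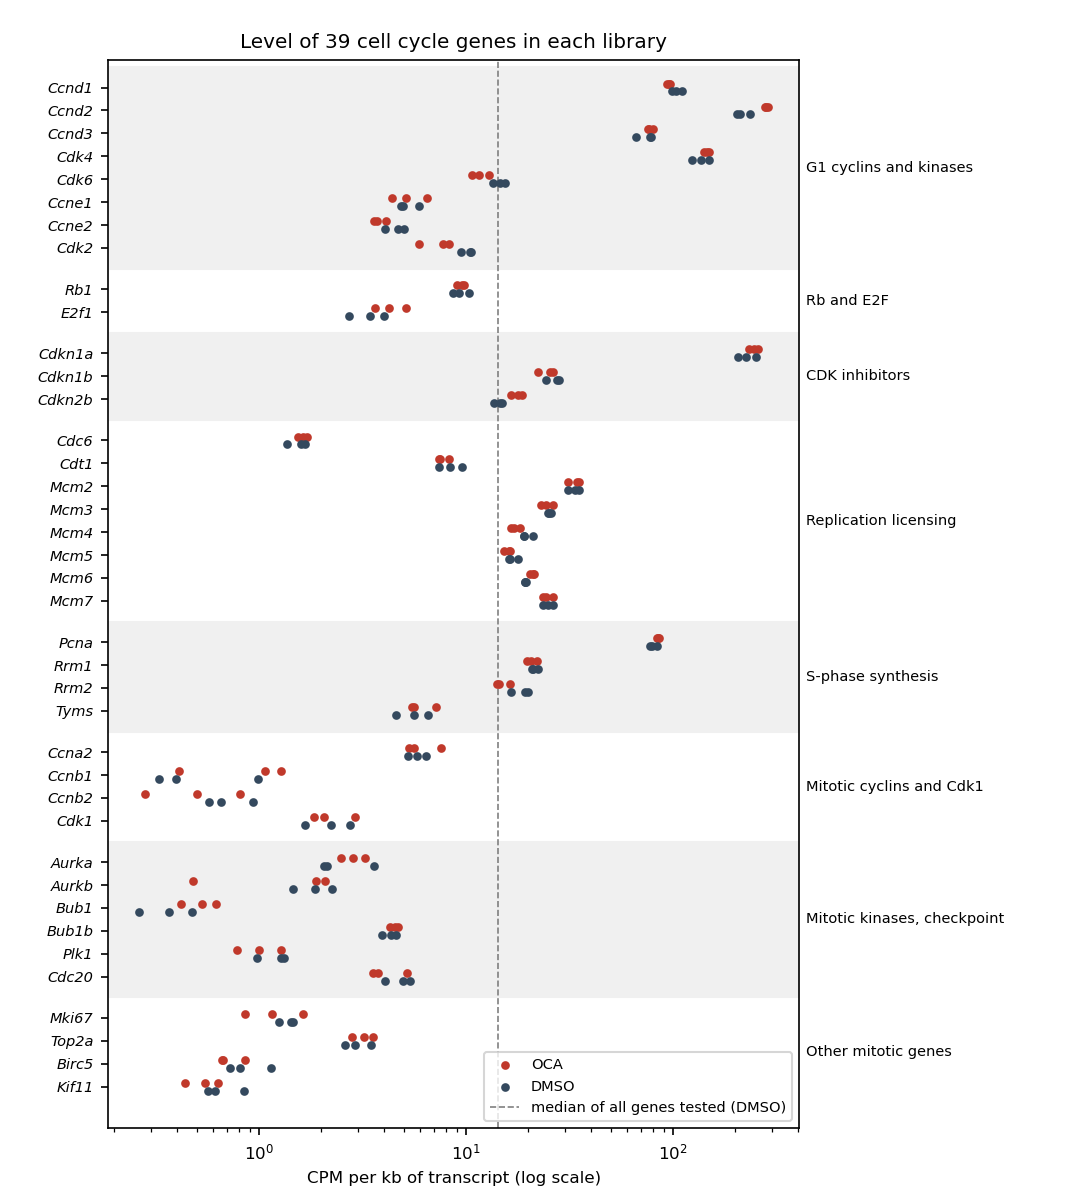
Level of each of the 39 members (y axis, grouped by role) in each library as CPM per kb of transcript (x axis, log scale), with OCA libraries in red, DMSO libraries in dark blue and the DMSO median of all tested genes as a dashed line. D-type cyclins, Cdk4, Pcna and Cdkn1a stand far right of the line, the Mcm genes just right of it and all 14 G2/M genes left of it.

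Under OCA, 3 of the 39 members changed, 1 higher and 2 lower, all of them G1 cyclin or kinase genes. This is 7.69% of the members, where 5.20% of all genes tested were called in either direction by edgeR's quasi-likelihood test (adjusted p under 0.05, Benjamini-Hochberg over all tested genes), 2.18% higher and 3.03% lower. The members' share is thus near the background. The median log2 fold change, OCA over DMSO, was -0.0021 over the G1/S genes, -0.07 over the G2/M genes and 0.0008 over all genes tested. The G2/M median was above 0 with a filter at 1 CPM (0.04), without OCA C (0.03) and with a correction for transcript length and read density (0.084). The 3 OCA and 3 DMSO libraries did not overlap for 9 members, 4 with OCA above and 5 with OCA below, or 23.1%, against 23.0% of all genes tested. All 9 were G1/S or CDK inhibitor genes, and the groups overlapped for all 14 G2/M genes. The shares were 36.4% of the G1/S, 33.3% of the CDK inhibitor and 0% of the G2/M genes. The G1/S and G2/M genes also differ in level (median percentile of CPM per kb in DMSO 57.9 and 13.5), and the difference in shares was not tested.

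Ccnd2, which encodes cyclin D2, was the member that rose. It lies on mm10 chromosome 6, 127125709 to 127151048, minus strand (NM_009829). Its level was 1618, 1607 and 1654 CPM in OCA A, B and C and 1178, 1363 and 1216 CPM in DMSO A, B and C. Every OCA library lay above every DMSO library, and the OCA libraries were closer together (SD 24.8 against 97.8 CPM). The fold was 1.299 (log2 fold change 0.38, SE 0.08, 95% interval 0.20 to 0.55, adjusted p = 0.0127 by edgeR). The call ended in 4 of the 6 fits that left out 1 library (adjusted p = 0.0661 to 0.0765 by edgeR, log2 fold change 0.34 to 0.38), the exceptions being OCA B and DMSO B. A row on the opposite strand that overlaps the span of Ccnd2 held 34 counts over the 6 libraries, where Ccnd2 held 118103.5.

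The other D-type cyclin genes were not called. Ccnd1, a cyclin D gene that responds to growth factors, had 356, 363 and 367 CPM in OCA and 376, 420 and 391.9 CPM in DMSO. All OCA libraries lay just below the DMSO libraries, and the difference did not pass the test (log2 fold change -0.13, SE 0.07, adjusted p = 0.331). Ccnd3 had 152 ± 4.28 CPM in OCA and 146 ± 13.4 in DMSO, with overlapping groups (log2 fold change 0.06, interval -0.09 to 0.21). Per length, Ccnd2 made up 62.4%, 61.8% and 61.9% of the summed D-type cyclin level in OCA A, B and C, and 55.3%, 55.7% and 53.7% in DMSO A, B and C. Ccnd1 made up 21.0 ± 0.222% in OCA and 26.4 ± 0.370% in DMSO. These shares are given as values with no test.

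Cdk6, a kinase partner of D-type cyclins, fell (chromosome 5, 3343893 to 3531005, plus strand, NM_009873). It had 134, 149 and 123 CPM in OCA A, B and C and 178, 167 and 155 CPM in DMSO A, B and C. The groups did not overlap, though OCA B and DMSO C came within a few CPM of each other. The fold was 0.811 (log2 fold change -0.30, SE 0.08, interval -0.46 to -0.14, adjusted p = 0.0250 by edgeR), a call kept without OCA B or DMSO C but not without any other library (adjusted p = 0.0658 to 0.149). The Cdk6 transcript spans 11512 bases. Among tested genes split into 8 classes by length, the longest class (5782 bases or more) had its median at -0.14 and held 201 of the 384 lower genes, against a median of 0.10 and 3 lower genes in the shortest class. With each library corrected for a trend in length and counts per base, Cdk6 had a log2 fold change of -0.09 (adjusted p = 0.477 by edgeR). Ccnd2, with 5764 bases, kept its call under that correction (log2 fold change 0.36, adjusted p = 1.65e-05 by edgeR).

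Cdk4, the other partner of D-type cyclins, was not called (205 ± 4.73 CPM in OCA, 192 ± 18.1 in DMSO, log2 fold change 0.10, interval -0.05 to 0.24). The ratio of Cdk4 to Cdk6 per length was 12.5, 10.95 and 13.9 in OCA A, B and C, and 7.94, 10.2 and 10.1 in DMSO A, B and C, so that all OCA libraries lay above all DMSO libraries. These 2 transcripts differ much in length, with 1410 bases for Cdk4 and 11512 for Cdk6. With the length and density correction the log2 fold changes were -0.0013 for Cdk4 and -0.09 for Cdk6. The ratio was not tested.

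Cdk2, the kinase that acts with cyclin E and cyclin A in S phase, fell by the most among the members called (chromosome 10, 128697939 to 128705051, minus strand, NM_183417). It had 14.3, 20.0 and 18.7 CPM in OCA and 25.2, 22.9 and 25.5 CPM in DMSO. The lowest DMSO library stood above the highest OCA library, and OCA A was the lowest of all. The fold was 0.718 (log2 fold change -0.48, SE 0.13, interval -0.76 to -0.20, adjusted p = 0.0415 by edgeR). The call was lost when any library other than OCA B was left out (adjusted p = 0.0662 to 0.187, log2 fold change -0.35 to -0.52) and with the length and density correction (log2 fold change -0.46, adjusted p = 0.0795 by edgeR). The cyclin E genes that partner Cdk2 were not called. Ccne1 had 10.3 ± 2.02 CPM in OCA and 10.2 ± 1.16 in DMSO, and Ccne2 had 11.4 ± 0.840 and 13.8 ± 1.46 (log2 fold change -0.27, interval -0.60 to 0.05).

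**Figure D3:**
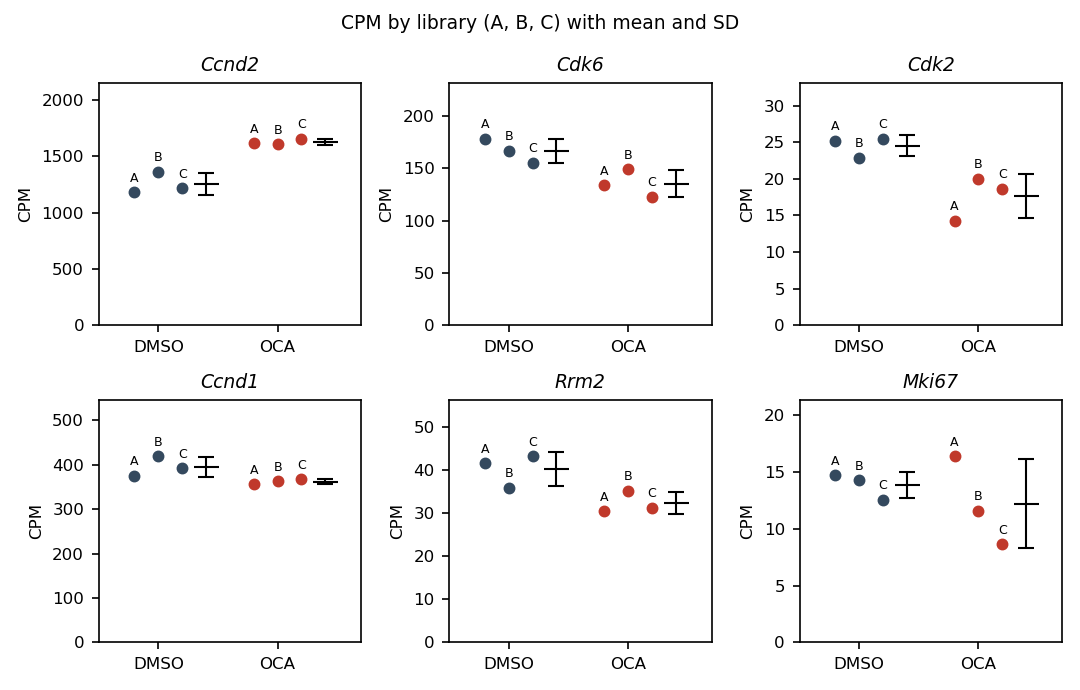
CPM of 6 members in each library (points, lettered A to C, DMSO dark blue and OCA red), with mean and SD at the right of each group (n = 3), on axes that start at 0. Ccnd2 lies higher and Cdk6 and Cdk2 lower in every OCA library, while the Mki67 groups overlap, with OCA A the highest library.

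Neither Rb1, E2f1 nor the CDK inhibitor genes passed the test. Rb1, which encodes the retinoblastoma protein, had 43.9 ± 1.90 CPM in OCA and 43.6 ± 3.93 in DMSO (log2 fold change 0.01, interval -0.18 to 0.20). E2f1 had 9.87, 11.6 and 14.1 CPM in OCA and 7.39, 9.37 and 10.9 in DMSO, with overlapping groups and a wide interval (log2 fold change 0.37, -0.03 to 0.77). Among the CDK inhibitors, Cdkn1a had 446, 470 and 489 CPM in OCA and 391.6, 482 and 431 in DMSO. DMSO B lay between OCA B and OCA C, and the log2 fold change was 0.11 (interval -0.06 to 0.27). Cdkn2b, encoding the TGF-beta-induced inhibitor p15, had 22.9, 25.9 and 24.7 CPM in OCA and 20.3, 20.7 and 18.9 in DMSO. Its OCA libraries all lay higher, without passing the test (log2 fold change 0.29, SE 0.12, adjusted p = 0.161). Cdkn1b, for the inhibitor p27 that is high in resting cells, had 59.2 ± 5.06 and 64.1 ± 4.998 CPM (log2 fold change -0.11, interval -0.29 to 0.06).

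Of the 12 licensing and synthesis genes 0 were called by edgeR or DESeq2 (2 had an unadjusted p under 0.05 by edgeR, against 19.0% of all genes tested), and their 95% intervals all lay within a 1.5-fold change in either direction. Rrm2, the regulated subunit of ribonucleotide reductase, came nearest to the threshold. It had 30.5, 35.3 and 31.3 CPM in OCA and 41.6, 35.9 and 43.3 in DMSO, and the groups stood apart by less than 1 CPM between OCA B and DMSO B. Its log2 fold change was -0.32 (SE 0.10, adjusted p = 0.0711 by edgeR). The other reductase subunit gene Rrm1 had overlapping groups (log2 fold change -0.04, interval -0.19 to 0.10). Mcm4 had 58.6, 65.4 and 61.0 CPM in OCA and 74.8, 68.1 and 68.2 in DMSO, all OCA libraries lower (log2 fold change -0.19, adjusted p = 0.172). Mcm6 had 92.7, 94.1 and 90.3 CPM in OCA and 85.0, 85.2 and 85.8 in DMSO, all OCA libraries higher (log2 fold change 0.11, adjusted p = 0.361). The Pcna groups only just stood apart, at 105.2 CPM in OCA C and 105.1 in DMSO C (log2 fold change 0.08, interval -0.06 to 0.22). Mcm2, Mcm3, Mcm5, Mcm7, Cdc6, Cdt1 and Tyms had overlapping groups, with log2 fold changes between -0.13 for Cdt1 and 0.14 for Tyms.

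Of the 14 G2/M genes 0 were called by edgeR or DESeq2, and 0 had an unadjusted p under 0.05 by edgeR, where 19.0% of all genes tested did. Mki67 had 16.4, 11.6 and 8.64 CPM in OCA A, B and C and 14.7, 14.3 and 12.6 CPM in DMSO A, B and C. OCA A was the highest and OCA C the lowest of the 6, so the OCA group enclosed the DMSO group (log2 fold change -0.18, SE 0.19, interval -0.58 to 0.22). The Mki67 transcript spans 10059 bases, and with the length and density correction its log2 fold change was 0.0652. Top2a had 16.5 ± 1.95 CPM in OCA and 15.5 ± 2.27 in DMSO, and Ccna2 had 20.7 ± 4.10 and 19.7 ± 1.94 CPM. The Ccna2 span shares 863 bases with the more highly counted Exosc9 on the opposite strand (1664 against 5781.5 counts over the 6 libraries). The checkpoint gene Bub1b had 16.4 ± 0.729 and 15.6 ± 1.23 CPM (log2 fold change 0.07, interval -0.21 to 0.35). Summed over the 14 genes, the level lay between 92.9 and 114 CPM in OCA and between 97.6 and 105 CPM in DMSO.

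The rarest mitotic genes had few counts and wide intervals. Ccnb1 rested on 39, 32 and 12 counts in OCA A, B and C and 12.5, 11 and 35 in DMSO A, B and C, and its log2 fold change of 0.68 had an interval of -0.37 to 1.73. Ccnb2 rested on 32 counts over the OCA and 48.5 over the DMSO libraries (interval -1.50 to 0.66). Aurkb, the kinase of the chromosomal passenger complex, had 12.5 counts in OCA A against 53 and 47 in OCA B and C. Birc5, which encodes survivin in the same complex, Plk1, Kif11, Bub1, Aurka, Cdk1 and Cdc20 also had overlapping groups. Of the 14 G2/M intervals, 5 lay within a 1.5-fold and 10 within a 2-fold change in either direction, so that for the other 9 a 1.5-fold change in at least 1 direction lay inside the interval. Among the 22 G1/S genes 19 intervals lay within 1.5-fold and all within 2-fold.

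**Figure D4:**
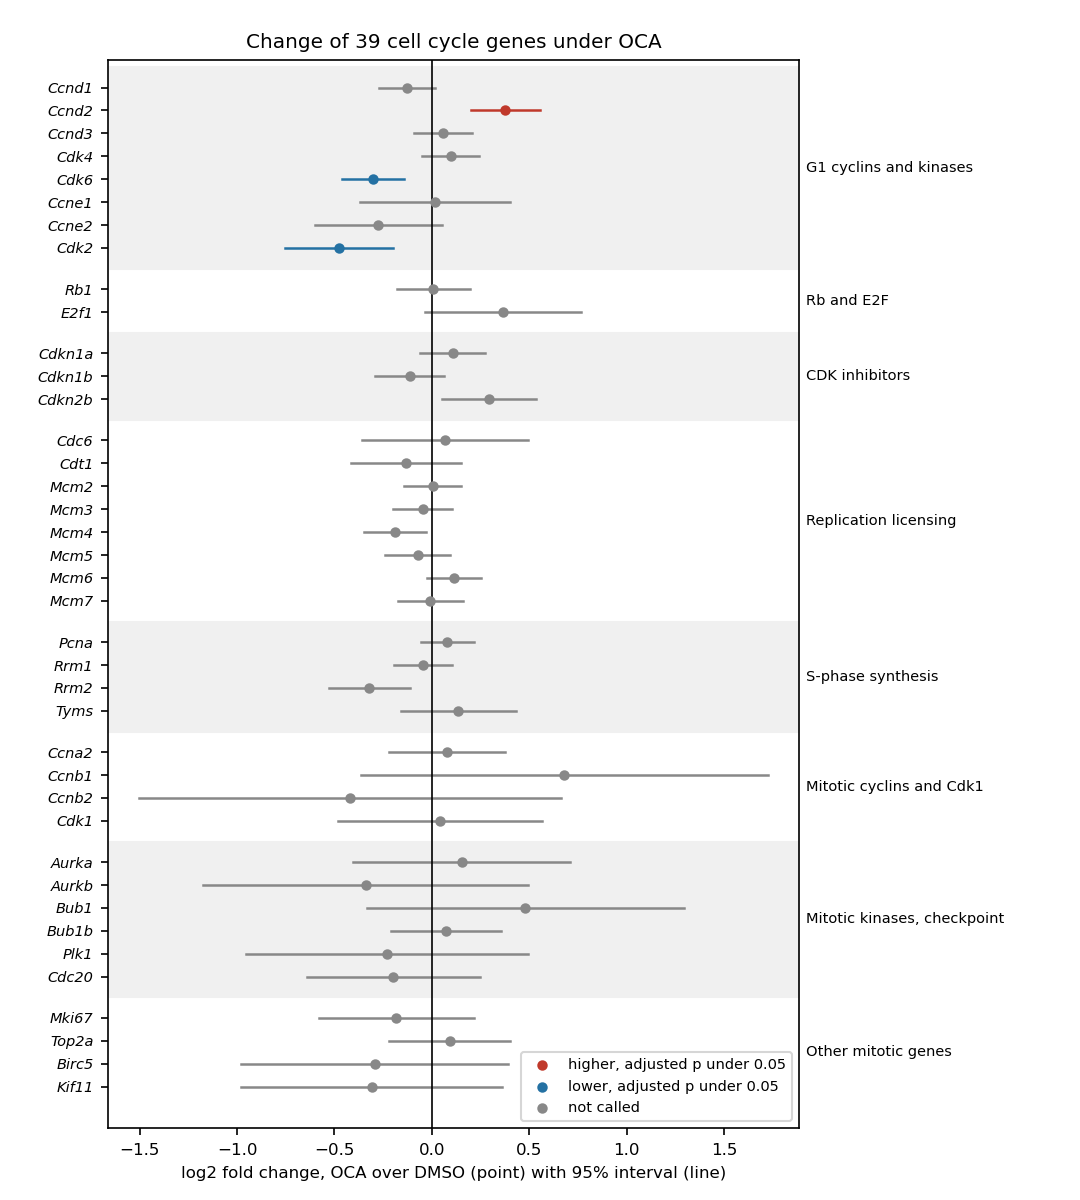
Log2 fold change (x axis, OCA over DMSO, points) with 95% interval (lines) for the 39 members (y axis, grouped by role), red where higher, blue where lower and grey where not called at an adjusted p under 0.05. Ccnd2 at 0.38, Cdk6 at -0.30 and Cdk2 at -0.48 are called, and the intervals widen to the G2/M genes at the bottom.

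In wider lists of the same machinery, between 0% and 5.56% of the genes tested in a list were called, where the share over all genes was 5.20%. Of 53 further G1/S genes 1 fell and none rose, with a median log2 fold change of 0.01. This was Gins3, a subunit of the replicative helicase, at 4.50, 4.26 and 5.61 CPM in OCA and 8.24, 8.66 and 8.23 in DMSO (log2 fold change -0.80, SE 0.22, adjusted p = 0.0372 by edgeR). All OCA libraries lay well below the DMSO libraries, but when 1 library was left out the call held only in the fit without OCA C. It also ended with the length and density correction (adjusted p = 0.0637 by edgeR). Of 49 further G2/M genes tested 2 rose and none fell, although 33 of them had a log2 fold change below 0 (median -0.08). Ncaph, a condensin subunit gene, went from 7.99 ± 2.33 to 13.2 ± 1.19 CPM (log2 fold change 0.71, adjusted p = 0.0429) and Anln, encoding the cytokinesis scaffold anillin, from 25.9 ± 0.899 to 32.8 ± 0.532 CPM (log2 fold change 0.34, adjusted p = 0.0484). The Anln call ended in 12 of 14 alternative settings, among them each fit that left out 1 library, DESeq2 (adjusted p = 0.0569), RLE scaling and library totals. When 1 library was left out, that of Ncaph held only in the fit without OCA B, and it ended with library totals (adjusted p = 0.0557 by edgeR).

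Among 18 further CDK inhibitor and checkpoint genes 1 fell, the replication stress kinase gene Atr (47.3 ± 3.42 to 37.6 ± 0.524 CPM, log2 fold change -0.33, adjusted p = 0.0316 by edgeR). Among the fits that left out 1 library its call held only without OCA B or DMSO B. With the length and density correction its log2 fold change was -0.15 (adjusted p = 0.433 by edgeR). Of 17 further Rb, E2F and MuvB genes 0 were called by edgeR, and 2 had an unadjusted p under 0.05, a share below the 19.0% of all genes. Their most abundant members, Rbbp4 (241 ± 15.8 CPM in DMSO, 249 ± 5.78 in OCA) and Rbbp7 (213 ± 12.6 and 223 ± 13.6), encode histone-binding subunits. Of 23 tested p53 target genes, the class to which Cdkn1a belongs, 1 rose and none fell. The antiproliferative gene Btg2 had 98.4, 103 and 99.1 CPM in OCA and 81.9, 84.5 and 85.0 in DMSO, all OCA libraries higher (log2 fold change 0.26, SE 0.07, adjusted p = 0.0268 by edgeR). Of the fits that left out 1 library it kept its call only without OCA B (adjusted p up to 0.0961 in the others, by edgeR).

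**Figure D5:**
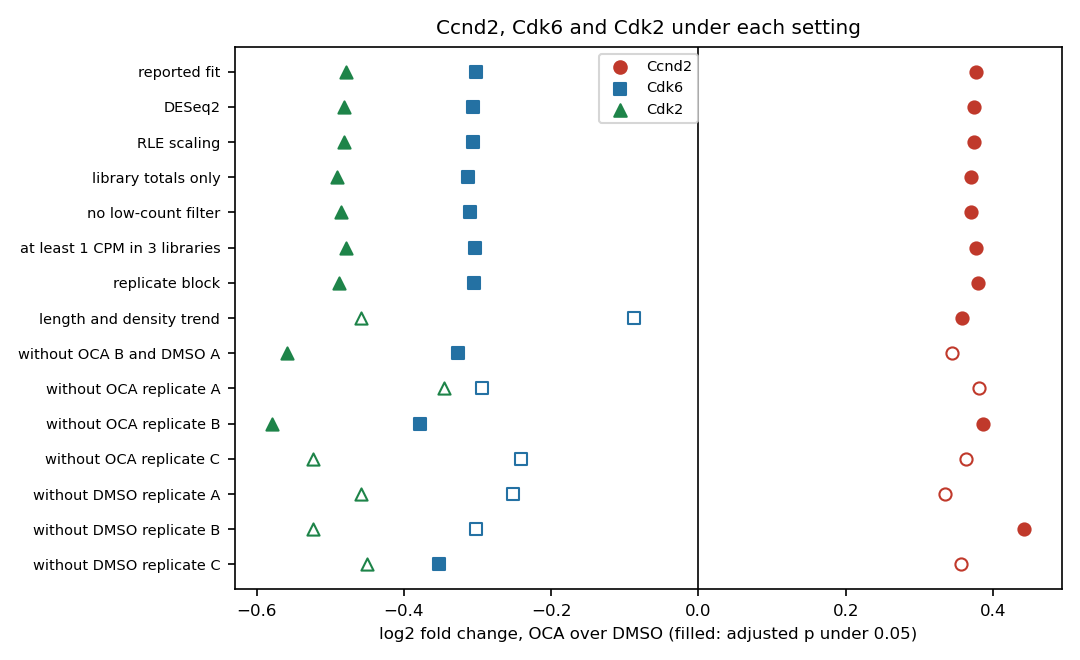
Log2 fold change (x axis, OCA over DMSO) of Ccnd2 (circles), Cdk6 (squares) and Cdk2 (triangles) under the reported fit and 14 alternatives (y axis), filled where the adjusted p is under 0.05. The direction of each gene is the same under all of them, calls end in most fits that leave out 1 library, and Cdk6 shrinks to -0.09 with the length and density trend.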

How the data were processed

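RNA sequencing was done on 6 libraries, 3 with OCA and 3 with DMSO, named by the sample labels and matched to the table's columns by title. STAR, HOMER and mm10 are named in the submitters' processing notes, with no versions, and strand setting and multiple mapping have no description there. The authors deposited unadjusted exon counts, which come in steps of 0.5, so the authors' deposited values were handled like estimated counts and rounded to whole numbers for the tests. Between 26.5% and 29.8% of values were not whole. CPM values use the unrounded counts over TMM-scaled totals, where 3 counts correspond to 0.181 to 0.251 CPM. Genes that share reads with near-identical copies are uncertain. So are those that overlap an opposite-strand gene, here Ccnd1, Ccnd2, Ccnd3, Ccne2, Rb1, Cdkn2b, Ccna2 and Cdc20. For Ccne2, Cdc20 and Ccnd3, as for Ccna2, the overlapping gene held more counts over the 6 libraries. Ints8 held 6161.5 against 1061 for Ccne2 (1852 shared bases), and Elovl1 held 11508.5 against 659 for Cdc20 (52 bases). Bysl held 12345.5 against 12334.5 for Ccnd3 (358 bases).

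The test was edgeR 4.0.16 in R 4.3.3 (filterByExpr, TMM, quasi-likelihood, two-sided, no block, Benjamini-Hochberg over 12687 genes, threshold 0.05). SE is the log2 fold change over the square root of F, and intervals use its degrees of freedom. The fit was tested on simulated data with 50 changed genes per fold. It called 50% of them at a 1.3-fold change, 72% at 1.5-fold and 94% at 2-fold, with 12 false calls. The changed genes were drawn at random from all tested genes. Simulated scatter followed the fitted trend with expression level, with none particular to a gene. These shares therefore do not give the recovery for genes with few counts, such as the rarest mitotic genes. Alternatives were DESeq2 1.42.0, other scalings and filters, a replicate block, a loess correction (span 0.3) on length and counts per base, and leaving out libraries. Members and lists were chosen with earlier results of these data known. Named genes are all 39 members, and up to 4 called genes per direction from each wider list, otherwise its 2 most abundant. The 2 most abundant markers per cell type, Abcb11, Nr1h4 and some genes that overlap members are also named. The markers Rgs5 and Col1a2 were named because they were called. Markers under 1 CPM were named after their values were seen. No pair of libraries within a group agreed within sampling noise (chi-square per degree of freedom 4.3 to 7.78).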

Additional observations from a re-analysis of the deposited data

How the results depend on the processing

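The counts of members called, 1 higher and 2 lower, were the same with DESeq2, RLE scaling, library totals, the filter at 1 CPM and the replicate block. Without OCA B and DMSO A, 0 members were higher and 3 lower (Rrm2 added), and with the length and density trend 1 member was lower. Leaving out 1 library gave 0 to 1 higher and 0 to 3 lower members. Over all genes, 703 were lower with no low-count filter, 164 with the length and density trend and 605 without OCA B and DMSO A, against 384 in the reported fit. Leaving out 1 library gave 161 to 363 higher and 104 to 758 lower genes. In the wider lists, 1 gene was higher with library totals only and 1 lower, neither Gins3 nor Atr, with the length and density trend, and leaving out 1 library gave 0 to 4 in each direction. The length and density trend moves the share of higher genes among those called, with 347 higher against 164 lower. The G1/S median ranged from -0.0301 to -0.0032 when 1 library was left out, and the G2/M median was 0.084 with the length and density trend. Ccnd1 was called lower with that trend (-0.16), and Rrm2 was called with no low-count filter (-0.33), without OCA B (-0.39) and without OCA B and DMSO A (-0.36).

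Directions turned only for members that were not called, 15 of the 39. With the length and density trend this held for Ccnd3 (-0.0026), Cdk4 (-0.0013), Pcna (-0.0109) and Mki67 (0.0652). Without OCA B and DMSO A it held for Ccnd3 (-0.0084), Ccne1 (-0.0158), Mcm5 (0.0077), Mcm7 (0.0263), Tyms (-0.12) and Cdk1 (-0.0062). With library totals only it held for Rb1 (-0.0019) and Mcm2 (-0.0064), and with no low-count filter for Mcm2 (-0.0040). When 1 library was left out, log2 fold changes ran from -0.0165 to 0.10 for Ccnd3, -0.14 to 0.13 for Ccne1, -0.0484 to 0.0838 for Rb1, -0.0115 to 0.12 for Cdc6, -0.0428 to 0.0537 for Mcm2, -0.0573 to 0.0339 for Mcm7, -0.0006 to 0.26 for Tyms, -0.0959 to 0.18 for Ccna2, -0.19 to 0.23 for Cdk1, -0.67 to 0.0915 for Aurkb, -0.45 to 0.0101 for Mki67 and -0.0013 to 0.22 for Top2a. The cause was not tested. The labels do not say whether the replicate letters pair the libraries. Same-letter correlations of deviations from the group means were 0.008, -0.047 and 0.076, with 3 of 6 libraries closest to their own letter. With 3 libraries per group these values cannot decide it. The replicate block gave 306 higher and 508 lower genes, against 276 and 384 in the reported fit. Among the called members and Gins3, Anln, Ncaph, Atr and Btg2, Anln alone lost its call with the block (0.34, adjusted p = 0.0537 by edgeR).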

Other observations

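Libraries of a group differed in their mitotic transcripts. OCA A was the highest of its group in 8 of the 14 G2/M members (57.1%) and in 27 of 49 further G2/M genes (55.1%), where it was the highest in 34.7% of all genes tested. DMSO C was the highest of its group in 6 of the 14 members (42.9%) and in 24 of the 49 further genes (49%), against 29.9% of all genes. Yet DMSO C was also the lowest of its group in 7 of the 14 members (50%), against 30.5% of all genes. Among the 49 further genes it was the lowest in 15 (30.6%). By the median of the 14 members per length, OCA A (1.45 CPM per kb) was not above OCA B (1.56). In OCA A the cyclin A gene Ccna2 stood at 25.4 CPM against 17.8 in OCA B and 18.9 in OCA C, and Cdk1 at 8.33 CPM against 5.25 and 5.85. Aurkb went the other way, with 0.938 CPM in OCA A against 4.06 and 3.69. Among the G1/S members OCA A was the highest in 3 of 22 (13.6%), but in 24 of 53 further G1/S genes (45.3%). These patterns were noticed in the data and were not tested.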
